A study of Xenopus laevis with 4 samples.

Results

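Some ETS2 regions of the Xenopus laevis genome held several separate ChIP-seq peaks of 1 library within a single stretch of DNA. The regions were taken from the authors' list of common regions, which are stretches with overlapping peaks of both ETS2 ChIP libraries. Each region named below ran from the first start to the last end of its overlapping peaks, so parts of it were called in only 1 library. A region was chosen when it lay on a chromosome, overlapped 2 or more peaks of library 1 by at least 1 bp, and did not hold a peak at or above the 95th percentile of peak values in both libraries. This gave 3862 several-peak regions of 61137 common regions in all, of which 55441 lay on chromosomes. They held 8235 of the 62076 chromosomal peaks of library 1 (13.3%) and 3924 peaks of library 2. Peaks of library 1 inside such a region are called inner peaks.

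The study mapped the binding of ETS2 in whole embryos collected in mid-gastrulation, at stage 11.5, after injection of 750 pg of mRNA for ETS2 with a triple FLAG tag. The 4 libraries comprise 2 ChIP libraries made with an antibody to FLAG, a short peptide tag, and 2 input libraries made without antibody. All 4 came from embryos that had received the tagged mRNA; no immunoprecipitate of uninjected embryos was analysed here. Nothing in the labels says whether the 2 ChIP libraries came from separate clutches. Library 1 is the ChIP lettered A, whose list also names the input lettered D, and library 2 is the ChIP lettered C with the input lettered F. The binding seen is that of an injected, tagged protein, and the amount of protein per cell was not measured. In whole embryos, sites bound together in 1 cell and sites bound in different cells cannot be told apart.

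ETS2 belongs to the ETS family of transcription factors, which recognise short DNA sites with the core letters GGAA. ETS factors are known to be phosphorylated downstream of FGF receptors by MAP kinase, and this signalling helps to form mesoderm in the gastrula. Regulatory DNA often carries several sites for the same factor close together. ChIP-seq separates such sites less readily when they lie closer together than the sheared fragments are long. Neither sequences nor genes were assigned to the regions, since the assembly behind their coordinates was not used here.

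Each deposited peak has 1 value, which has no name in the files and was taken to be a −log10 significance (p or q). It is the authors' own value and is called the peak value. The lowest values were 1.33 in library 1 and 1.31 in library 2, and the medians were 8.34 and 10.5. Since such values grow with depth, which is unknown, the libraries are set side by side by percentile rank within each list. Library 1 had 69083 peaks and library 2 had 157105. Each list is 1 library, so medians and shares have no replicate error. Intervals are exact 95% binomial ones (for medians, from order statistics), and they cover counting error only, since neighbouring peaks are not independent.

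Most several-peak regions were pairs. Exactly 2 inner peaks were found in 3419 regions (88.5%, 95% interval 87.5 to 89.5%), 3 in 385 (9.97%, 9.04 to 10.96%), 4 in 51 and 5 in 5, while 1 region held 6 and 1 held 7. Of all common regions on chromosomes, 4258 (7.68%) held 2 or more library 1 peaks, and 396 of these were left out for their high values in both lists. As the rule chose regions by this number, it is given as a description. In library 2, 3800 of the 3862 regions held a single peak and 62 held 2. A gap between inner peaks stays inside a region only where a library 2 peak covers it. This count is therefore bound to how the common regions were built, and it is not read as a contrast between the libraries.

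The regions with the most inner peaks were long stretches, each with 1 library 2 peak over its gaps. On chromosome 4S at 22805071 to 22808359, a region of 3289 bp held 7 inner peaks with values of 18.0, 15.1, 7.95, 3.76, 7.07, 29.2 and 10.7 in order along the chromosome. Its single library 2 peak had a value of 31.7, at the 78.0th percentile of that list, and covered the whole region. Neighbouring inner peaks had midpoints 339 to 522 bp apart, so none stood off from the row. On chromosome 5L at 23122254 to 23125293, 6 inner peaks had values of 6.32, 14.3, 4.80, 22.4, 2.64 and 17.9, with midpoints 327 to 664 bp apart, and the library 2 peak had a value of 59.4. High and low inner peaks alternated there.

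The widest several-peak region lay on chromosome 5S at 6784793 to 6788712. It spanned 3920 bp under 1 library 2 peak (value 61.1) and held 5 inner peaks with values of 5.85, 47.9, 4.97, 4.50 and 9.74, so that 1 peak stood far above the others. On chromosome 2L at 75982384 to 75984969, 5 inner peaks had values of 2.55, 17.6, 3.34, 11.3 and 2.96, under a library 2 peak with a value of 34.5. On chromosome 1L at 38176903 to 38178543, 5 inner peaks had values of 8.21, 4.93, 2.96, 4.08 and 18.5, in only 1641 bp, and the library 2 peak had a value of 27.9. In all 5 of these regions the lowest inner peak had less than 16% of the value of the highest. Across all several-peak regions this percentage had medians of 46.7% with 2 inner peaks, 29.3% with 3 and 22.0% with 4 or more. The lowest of a larger number of peaks tends to be lower, so these percentages are descriptions.

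**Figure D1:**
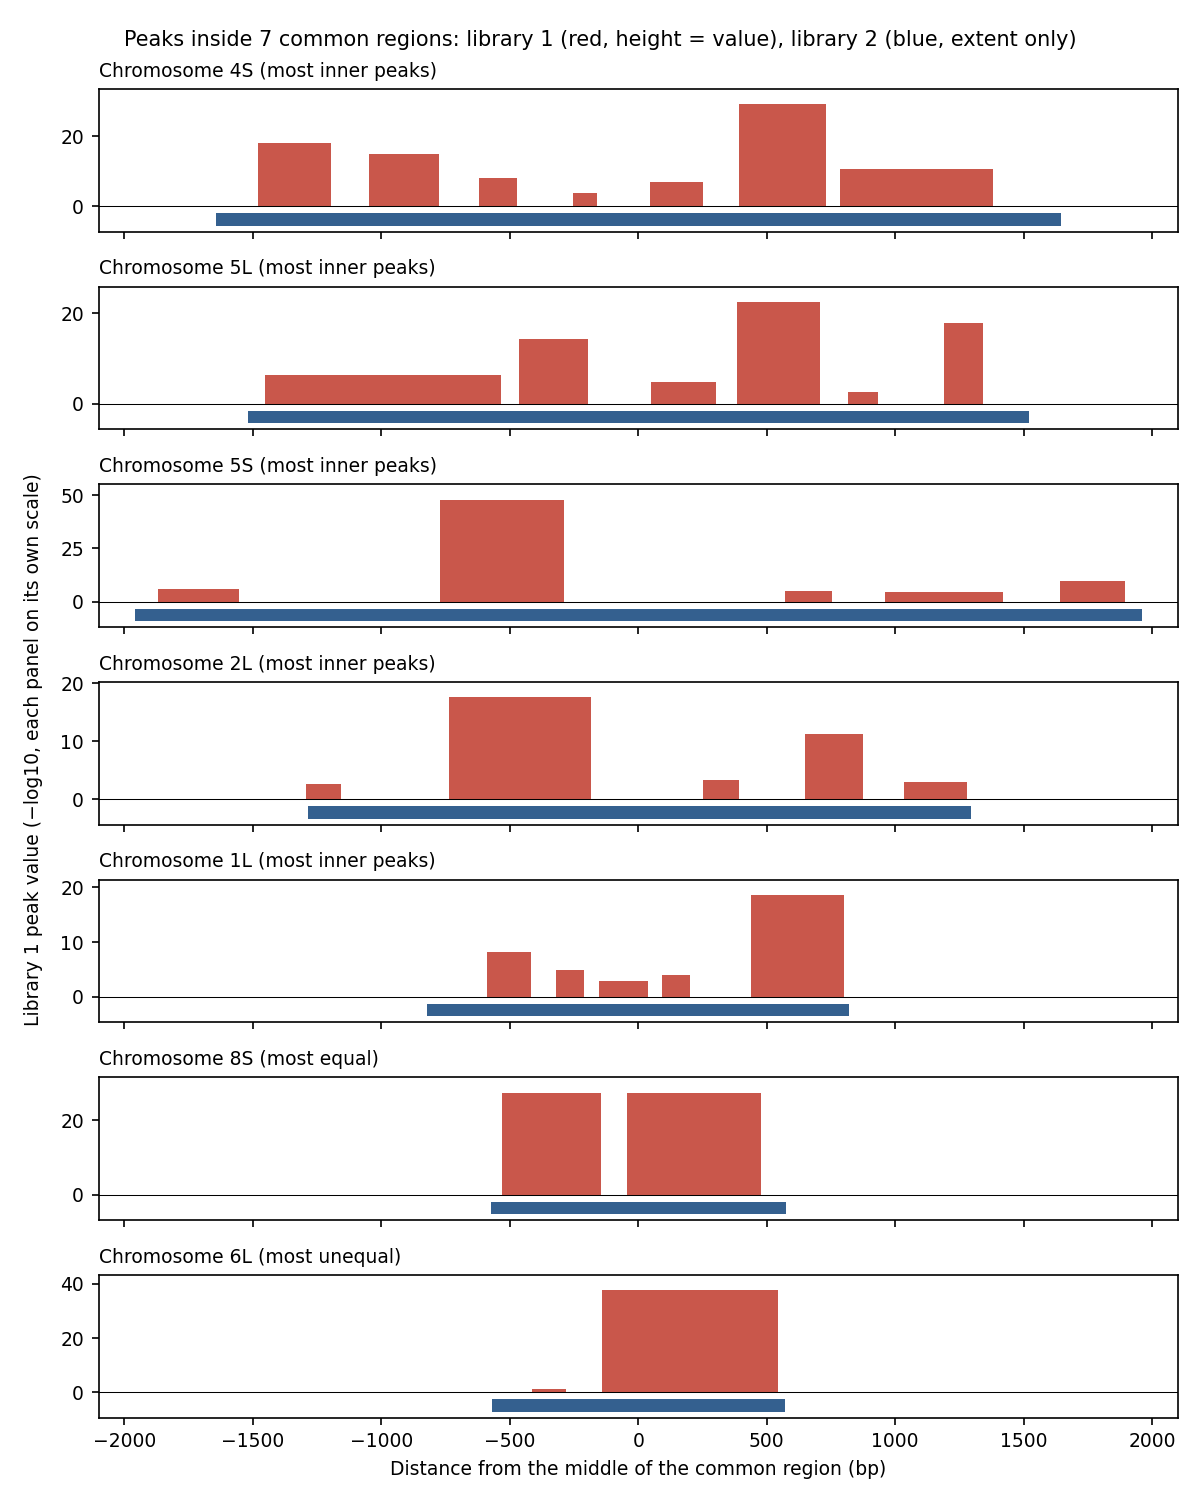
Peaks inside 7 several-peak regions, drawn by distance from the middle of each region in bp. Red boxes are library 1 peaks, with their extent on the x axis and their peak value (−log10) on the y axis, each panel on its own scale; blue bars give the extent of the library 2 peak. The top 5 panels are the regions with 5 to 7 inner peaks named above, and the lower 2 show a region with nearly equal inner values (27.4 and 27.4) and the one with the most unequal values (1.39 and 37.6); a single library 2 peak lies under nearly all of each.

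Across the 4373 pairs of neighbouring inner peaks, the midpoints were a median of 390 bp apart (interquartile range 294 to 511 bp, 95% interval of the median 385 to 396 bp). Spacings of 250 to 400 bp were the most frequent, with 578, 573 and 563 pairs in successive classes of 50 bp (13.2%, 13.1% and 12.9%). Only 174 pairs (3.98%) lay 150 to 200 bp apart, and 47 (1.07%) lay 950 bp or more apart. The distribution fell off smoothly on both sides, and no second maximum was seen in classes of 50 bp.

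The gap between the facing ends of neighbouring inner peaks had a median of 118 bp (79 to 201 bp). The smallest gap was 52 bp, and 52 bp was also the smallest gap between neighbouring peaks of library 2, so each list holds no closer pair. Peaks of library 1 were at least 94 bp wide. These limits bear on the short end of the spacings, where the smallest midpoint spacing was 150 bp. Inner peaks had a median width of 211 bp (136 to 332 bp), against 223 bp (147 to 319 bp) for library 1 peaks in single-peak regions.

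**Figure D2:**
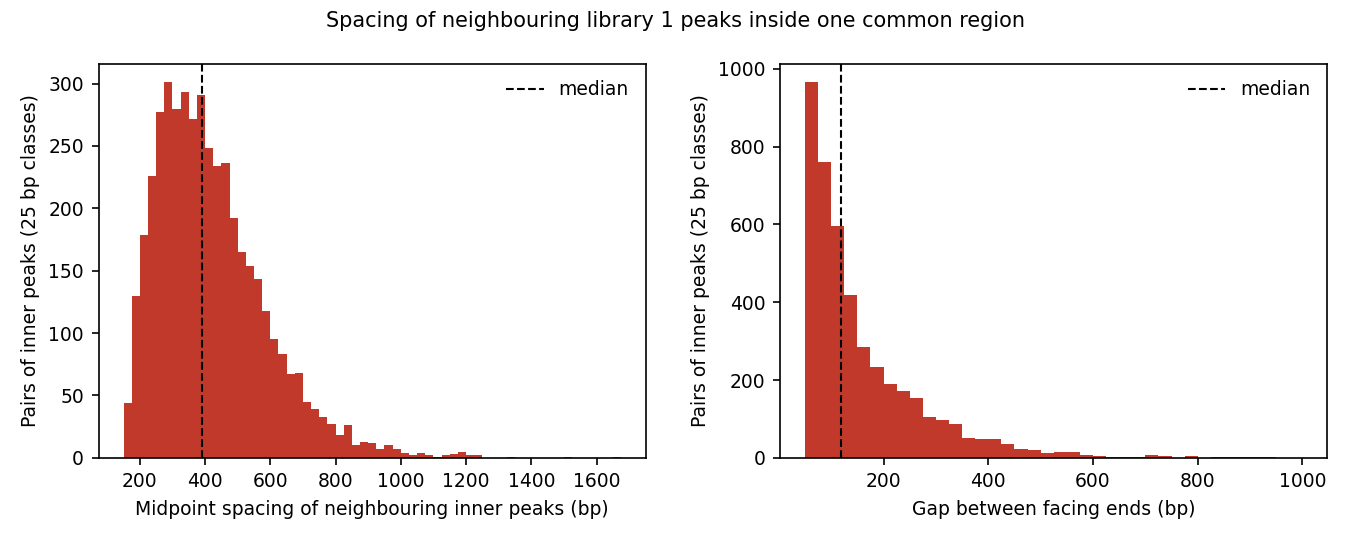
Number of neighbouring inner peak pairs by midpoint spacing (left) and by gap between their facing ends (right), both in bp in 25 bp classes; dashed lines are medians, 390 bp and 118 bp. The spacings form 1 broad maximum between 250 and 400 bp, while the gaps are most frequent just above their lower limit of 52 bp.

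Spacing hardly varied with the number of inner peaks, but it was larger where the highest inner value was larger. In 4 groups of regions of similar size, ordered from low to high by that value, median spacings were 308, 359, 419.5 and 484 bp. Midpoint spacing takes in part of the width of both peaks, and the highest inner peak was wider than the lowest in 76.4% of regions. No gaps are given for these groups, so the rise is not read as a larger distance between peak ends. The cause of this rise was not tested. By number of inner peaks, the median was 388 bp with 2 (292 to 509 bp), 395 bp with 3 (300 to 514 bp) and 402 bp with 4 or more (319 to 535 bp). Region width, which is bound to the number of peaks held, had medians of 859, 1314 and 1748 bp. The highest library 2 peak was at a median percentile of 81.7, 82.0 and 83.9 in the same 3 classes, so regions with more inner peaks were longer with nearly the same rank in library 2.

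The largest spacings belonged to a few very long regions. On chromosome 1L at 96781833 to 96785372, inner peaks with values of 10.7 and 6.62 had midpoints 1658 bp apart, and another of value 2.24 lay 452 bp farther. On chromosome 2S at 22229705 to 22232044, peaks of 3.72 and 37.9 lay 1502 bp apart. On chromosome 2L at 102818297 to 102820081, peaks of 11.6 and 4.27 lay 1335 bp apart, across a gap of 1002 bp. On chromosome 3S at 55664687 to 55666712, peaks of 18.7 and 9.22 lay 1240 bp apart. A gap inside a common region has to be covered by library 2. In each of these 4 regions 1 library 2 peak did so, with values of 58.5, 108.7, 20.4 and 35.6.

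Inner peaks of 1 region usually differed in value. The highest inner peak had a median value of 12.2 (7.54 to 20.3) and the lowest a median of 4.61 (3.28 to 6.69). The lowest reached a median of 44.3% of the highest (25.3 to 67.2%, 95% interval of the median 42.9 to 45.4%). In percentile ranks of library 1, the highest inner peak was at a median of 64.3 and the lowest at 22.7, and the difference within a region had a median of 31.5 points. The rule limited the high end of these values, so they are a description.

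Of the 8235 inner peaks, 2524 had a value under 5 (30.6%, 29.7 to 31.7%). The share over all library 1 peaks was 24.7%. That set also takes in peaks off the chromosomes and in regions left out for high values, so the shares are not like for like. The lowest inner peak, which is low by its definition, was under 5 in 2098 regions (54.3%, 52.7 to 55.9%). The lowest inner peak had less than 25% of the highest value in 949 regions (24.6%) and at least 75% of it in 693 (17.9%). In 580 regions (15.0%, 13.9 to 16.2%) every inner peak was at or above the median value of the list. The highest inner peak was wider than the lowest in 2949 regions (76.4%), with median widths of 285 and 159 bp.

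The lowest inner value was larger where the highest was larger, with wide overlap. The regions were split into 4 groups of similar size by their highest inner value. Where it was at most 7.54, the lowest had a median of 3.67 (interquartile range 2.76 to 4.56). The median was 4.93 (3.51 to 6.56) for highest values of 7.56 to 12.2, 5.25 (3.72 to 7.95) for 12.2 to 20.3 and 5.98 (4.04 to 9.82) for 20.3 to 64.7. As a percentage of the highest, these lowest values had medians of 69.0, 51.6, 34.7 and 21.2%. That percentage falls by construction when it is grouped by its own denominator, unless the lowest value grows in proportion, so its fall is not read as a result. The lowest value is also bounded, above by the highest and below by the list's limit of 1.33. Across regions, the rank correlation of highest and lowest inner value was 0.39 (n = 3862, a description, as peaks of a region share a library and a place).

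**Figure D3:**
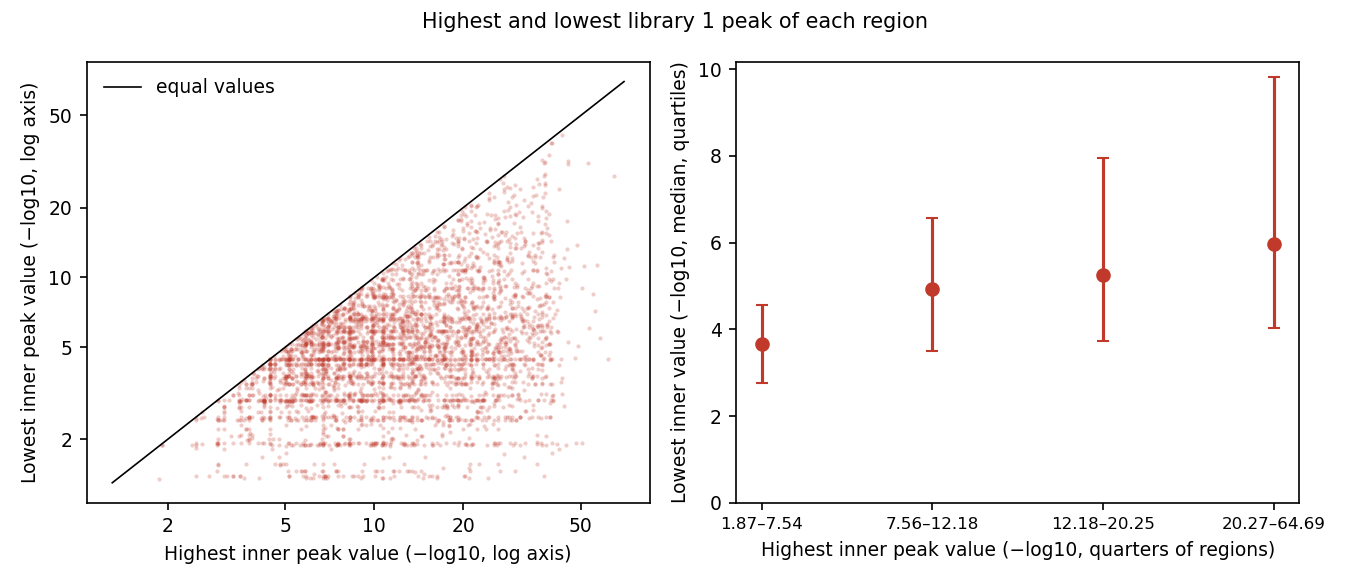
Lowest against highest inner peak value (−log10, both axes logarithmic) of each of the 3862 several-peak regions (left), with a line at equal values, and the lowest inner value (−log10, linear axis) in 4 groups of regions by highest value (right; points are medians, bars the interquartile range). The medians of the lowest value are 3.67, 4.93, 5.25 and 5.98, and the bars of neighbouring groups overlap.

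Near-equal pairs were the exception. The lowest inner peak had at least 90% of the highest value in 268 regions (6.94%, 6.16 to 7.79%). In 20 regions all inner values were identical, and values recur in these lists, since the 69083 peaks of library 1 carry 6325 distinct values. Among regions whose highest inner peak was at or above the list median, both inner peaks had a value of 9.12 on chromosome 1S at 72318282 to 72319650, at a spacing of 879 bp. Both had 9.74 on chromosome 9_10L at 4948516 to 4948971, where they lay only 201 bp apart. The pair on chromosome 8S at 26099241 to 26100387 had values of 27.4 and 27.4 at 556 bp, and that on chromosome 3L at 143986992 to 143988589 had 26.6 and 26.6 at 806 bp.

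At the other extreme, a strong peak had a barely called companion. The region on chromosome 6L at 90445179 to 90446317 held peaks of 1.39 and 37.6, a ratio of 3.71%. Chromosome 2L at 75985293 to 75986682 held peaks of 50.4 and 1.92. Chromosome 6L at 130048030 to 130049035 held 48.0 and 1.94, and chromosome 1L at 35403109 to 35403845 held 44.4 and 1.89. In these 4 regions the weaker peak stood within the lowest 3% of library 1, and the midpoints were 381 to 640 bp apart.

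The stronger inner peak was found at either end about equally often. In regions with 2 inner peaks, the one at the lower coordinate was the stronger in 1669 of 3419 (48.8%, 47.1 to 50.5%). In regions with 3, the strongest was the first in 135, the middle one in 109 (28.3%, 23.9 to 33.1%) and the last in 141. The weaker of 2 neighbours had a median of 65.4% of the value of the stronger at spacings of 150 to 200 bp, 46.9% at 300 to 350 bp and 38.7% at 550 to 600 bp. There was no steady fall beyond 600 bp, where the medians of successive classes lay between 36.2% (700 to 750 bp, 84 pairs) and 60.1% (850 to 900 bp, 23 pairs). The rank correlation of this percentage with spacing was −0.16 over 4373 pairs. With the gap in place of the spacing it was 0.01. Both are descriptions, since neighbouring pairs share a library and the stronger peaks are also the wider ones.

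The library 2 peak over a several-peak region reached beyond the inner peaks. Among the 3800 regions with 1 library 2 peak, it contained every inner peak whole in 3035 (79.9%, 78.6 to 81.1%). It extended a median of 86 bp past the first inner peak (39 to 148 bp) and 86 bp past the last (40 to 150 bp). With 2 inner peaks, the middle of the library 2 peak was nearer to the stronger one in 2237 of 3375 regions (66.3%, 64.7 to 67.9%). The median distances from that middle were 165 bp for the stronger and 228 bp for the weaker inner peak. Where the library 2 peak reaches equally far past both ends, its middle is nearer to the midpoint of the wider inner peak by geometry. The highest inner peak was the wider one in 76.4% of all several-peak regions, so these distances are a description and not a result about strength.

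The 5 several-peak regions with the highest ranks in both libraries were all pairs of inner peaks, as were 88.5% of all several-peak regions. The first by mean percentile was on chromosome 6L at 121875995 to 121877089, with inner values of 7.86 and 40.3 at 439 bp and a library 2 value of 180. The region on chromosome 3S at 5716942 to 5717993 held inner peaks of 14.3 and 39.5 at 459 bp, with 162 in library 2. The region on chromosome 3L at 35191616 to 35192516 held 38.0 and 2.49 at 273 bp, with 191 in library 2, the highest library 2 value of all several-peak regions. The region on chromosome 6L at 1280542 to 1281635 differed from these in its balance, with inner values of 38.2 and 39.7 at 664 bp and 157 in library 2. The last of the 5, on chromosome 1S at 90353084 to 90353810, held 3.08 and 40.0 at 327 bp, with 154 in library 2. All 5 had their highest inner peak just under the limit of 40.4 set by the 95th percentile of library 1. The rule required this, since all 5 were above the limit of library 2.

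The limits of the rule were 40.4 in library 1 and 86.6 in library 2. Just inside it in library 1 lay a region on chromosome 2L at 45834852 to 45836158 (highest values 40.3 and 113). Another lay on 4S at 94026391 to 94027428 (40.3 and 103). Just outside it lay regions on 4S at 79560349 to 79561776 (40.4 and 144) and on 4S at 92274876 to 92276016 (40.4 and 87.3). These regions on either side of the limit were alike in form, with 2 or 3 inner peaks and a lowest value of 7.27 to 16.6% of the highest. The region on 6L at 121875995 to 121877089 had the same library 1 value of 40.3. Its lowest value was 19.5% of the highest. Of the 3862 regions, 46 reached the limit in library 1 alone and 408 in library 2 alone.

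Several-peak regions were much wider than regions with a single library 1 peak. The rule asks for 2 or more separate peaks in 1 region, which takes room. The widths and the shares by width are therefore descriptions. The several-peak regions had a median width of 903 bp (697 to 1147 bp), against 433 bp (341 to 560 bp) in the 48741 single-peak regions left by the same exclusion. The share of regions with 2 or more library 1 peaks was 0.954% (0.836 to 1.08%) at widths from 300 to under 500 bp, 19.4% (18.3 to 20.5%) from 700 to under 900 bp, 58.7% (55.4 to 62.0%) from 1100 to under 1300 bp and 76.3% (69.6 to 82.2%) from 1500 to under 1700 bp. The widest single-peak region had 1982 bp, and 71 several-peak regions were wider. The comparisons that follow are therefore also given at similar width, in bins of 100 bp weighted to the widths of the several-peak regions.

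At similar width, several-peak regions had the lower rank in library 2. The mean percentile of the highest library 2 peak was 79.4 in several-peak regions and 85.03 in single-peak regions of similar width (3793 several-peak regions with a counterpart). Within chromosomes the difference averaged −5.93 points (SD 0.65 over 9 chromosome pairs, −6.84 to −4.90), and several-peak regions were lower on 18 of 18 chromosomes. No test was made, because the rule used library 2 values to leave regions out. The chromosomes are parts of the same 2 lists, so the SD and the count of chromosomes are descriptions and not replication. Without regard to width the order was the opposite, with means of 79.6 in several-peak and 74.5 in single-peak regions.

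The difference in medians was widest from 500 to under 700 bp. There the median percentile in library 2 was 75.2 in several-peak regions (64.2 to 82.7) and 86.5 in single-peak regions (76.8 to 93.1). From 900 to under 1100 bp it was 84.3 in several-peak and 89.4 in single-peak regions, and from 1300 to under 1500 bp it was 87.3 and 90.4. The interquartile ranges of the 2 kinds overlapped in each class of 200 bp from 300 to 1900 bp. In library 1, whose peaks chose the regions, the mean percentile of the highest peak was 61.6 in several-peak and 69.4 in single-peak regions of similar width. The summed library 1 value of a region ran the other way, with means of 21.4 and 18.9 at similar width. It was higher in several-peak regions on 18 of 18 chromosomes. That sum takes in 2 or more peaks against 1, so both measures are descriptions.

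**Figure D4:**
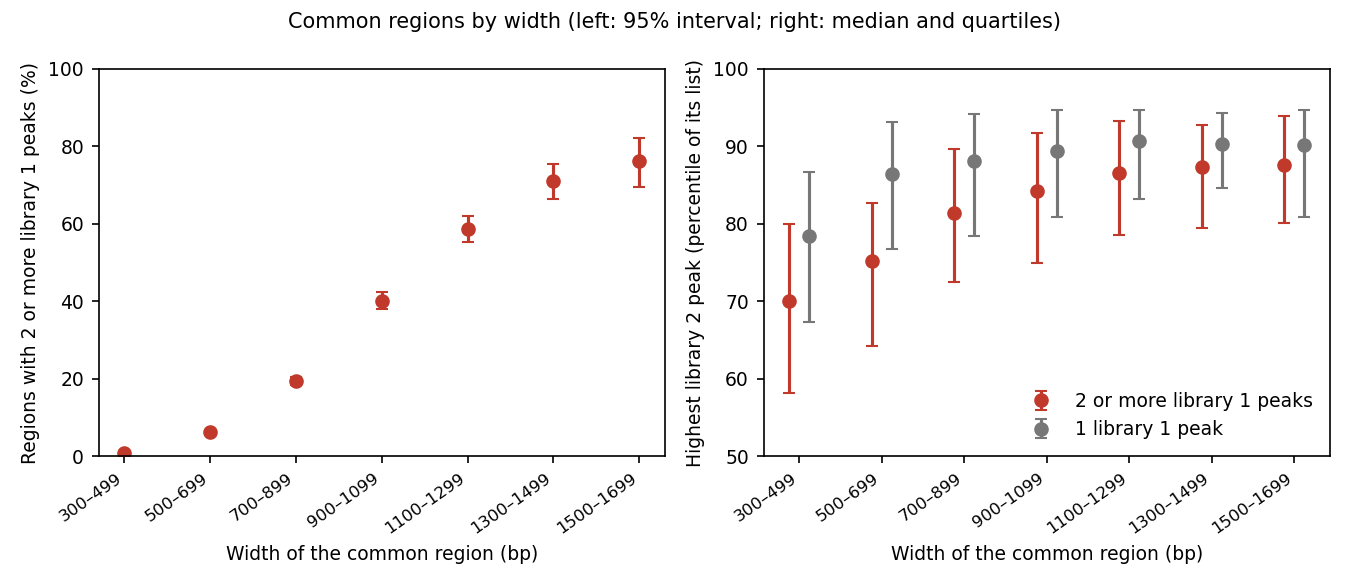
Left: share of common regions with 2 or more library 1 peaks, in percent with 95% intervals, by region width in bp. Right: percentile of the highest library 2 peak in several-peak regions (red) and single-peak regions (grey) of the same width (median and quartiles, y axis from 50); width classes with at least 20 single-peak regions are shown. The share climbs from 0.954% to 76.3%, and the red medians lie below the grey ones in each class.

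On average, library 1 peaks filled a similar part of both kinds of region, but the direction differed between width classes. They covered a mean of 57.8% of a several-peak region and 55.9% of a single-peak region of similar width. Within chromosomes the difference averaged 2.08 points (SD 1.53 over 9 chromosome pairs, positive in 8 of 9). From 300 to under 500 bp the medians were 60.8% in several-peak and 53.0% in single-peak regions. From 1300 to under 1500 bp they were 58.5% and 65.4%. The rank correlation of highest library 1 and library 2 values was 0.74 over the 3862 several-peak regions and 0.73 over the 48741 single-peak regions. These are descriptions across regions of the same 2 libraries.

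A second library 2 peak was rare. It was found in 62 several-peak regions (1.61%, 1.23 to 2.05%) and in 65 single-peak regions (0.133%, 0.103 to 0.170%), against 0.251% of all common regions on chromosomes. At similar width the shares were 1.45% in several-peak and 0.790% in single-peak regions. Within chromosomes the difference averaged 0.617 points (SD 0.791 over 9 chromosome pairs, −0.41 to 1.90, positive in 7 of 9). That SD is the spread between pairs and not the error of their mean, and no test was made. The construction of the common regions bears on this count. In 62 of the 62 regions a library 1 peak spanned the gap between the library 2 peaks, since a gap shared by both lists would end the region.

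In these 62 regions the highest peaks of both libraries could be compared, although a library 1 peak spanned the library 2 gap in each. The highest library 1 peak overlapped the highest library 2 peak in 56 (90.3%, 80.1 to 96.4%). In 20 of the 62 it overlapped both library 2 peaks, which makes the match certain. In the other 42 regions it overlapped only 1, and that was the higher one in 36 (85.7%, 71.5 to 94.6%). How often the lowest inner peak overlapped the higher library 2 peak was not counted, so this share is a description. The strongest of the 62 by rank, on chromosome 5L at 132878713 to 132879868, had inner values of 11.3 and 56.6. Its library 2 values were 20.6 and 84.8 in the same order. The order was also the same on chromosome 6S at 65123005 to 65124417 (11.8 and 34.5 in library 1, 13.6 and 109.3 in library 2). On both 5L and 6S the highest inner peak overlapped both library 2 peaks, so the match was certain there. On 4L at 73228880 to 73230143 (2.66 and 32.6, 4.62 and 108.1) it overlapped only the higher one. On chromosome 2S at 63999932 to 64001979, 4 inner peaks had values of 21.5, 4.44, 33.4 and 10.3, and library 2 had the higher of its values first, 99.5 before 92.7.

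Short gaps between library 1 peaks were mostly closed in library 2, and those between library 2 peaks were less often closed in library 1. Of 1997 neighbouring library 1 peaks on chromosomes with a gap of 50 to under 100 bp, 1887 (94.5%, 93.4 to 95.5%) lay in 1 common region. This share was 84.6% (82.9 to 86.1%) from 100 to under 200 bp, 60.6% (57.8 to 63.5%) from 200 to under 300 bp, 35.8% (32.6 to 39.1%) from 300 to under 400 bp and 20.03% (17.2 to 23.1%) from 400 to under 500 bp. These pairs include regions of any peak value. Of 2428 library 2 pairs with a gap of 50 to under 100 bp, 105 (4.32%, 3.55 to 5.21%) lay in 1 common region, and of 3647 pairs from 100 to under 200 bp, 33 (0.905%, 0.624 to 1.27%) did. Many library 2 peaks lay outside the common regions, and such pairs could not lie in 1 region. Of the 2428 pairs, 1164 had 1 peak outside and 718 had both outside, against 46 and 9 of the 1997 library 1 pairs. Among pairs with both peaks in common regions, and gaps of 50 to under 100 bp, the share in 1 region was 97.2% in library 1 (96.3 to 97.9%) and 19.2% in library 2 (105 of 546, 16.0 to 22.8%). From 100 to under 200 bp it was 89.4% in library 1 (87.9 to 90.7%) and 4.17% in library 2 (2.89 to 5.80%). Library 2 also had the larger number of peaks and wider ones, with a median of 318 bp against 217 bp for the close peaks described next. The part of these differences in the contrast was not tested.

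**Figure D5:**
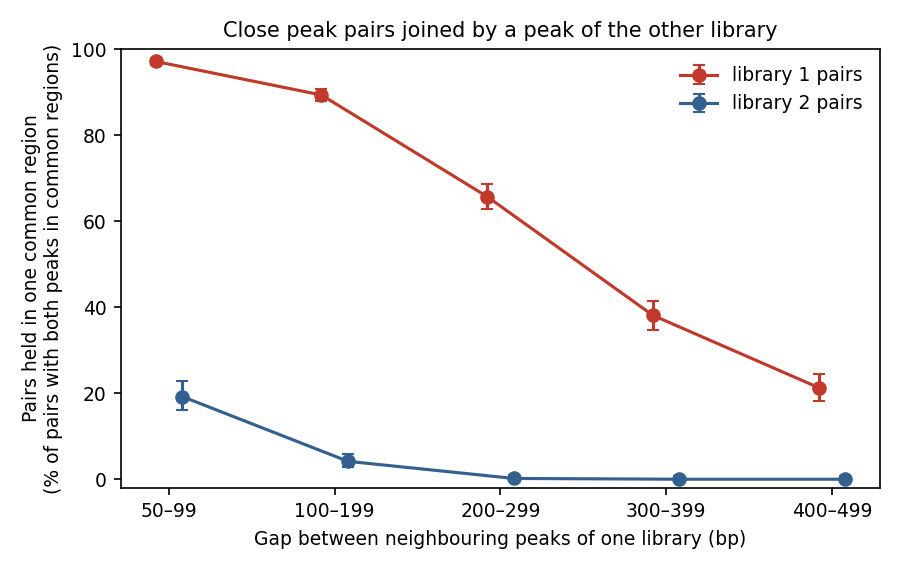
Share of neighbouring peak pairs of 1 library that lie in a single common region, in percent of the pairs with both peaks in common regions, with 95% intervals, by the gap between the peaks in bp; red points are pairs of library 1 and blue points pairs of library 2, on chromosomes and without any exclusion. The red share is 97.2% for the smallest gaps and 21.3% for the largest, and the blue share is 19.2% for the smallest gaps and 4.17% or less in the other classes.

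Library 2 had close peaks of its own. Of its 8640 neighbouring pairs with a gap of 50 to under 300 bp, 1.61% lay in 1 common region, 1745 lay in 2 different ones, and in the others 1 or both peaks lay outside the common regions. When peaks of 1 list no more than 300 bp apart were chained without use of the other list, 4481 of 56902 chains of library 1 (7.87%) and 7726 of 134499 chains of library 2 (5.74%) held 2 or more peaks. Neighbouring peaks of such chains had midpoints a median of 391 bp apart in library 1 and 523 bp in library 2, with gaps of 119 and 148 bp. The weakest peak of a chain had a median of 39.9% of the value of the strongest in library 1 (21.4 to 65.1%) and 28.9% in library 2 (11.99 to 56.3%). Close peaks of unequal value were present in both lists.

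Several-peak regions were spread over all 18 chromosomes. They made up 7.34% (7.12 to 7.57%) of the 52603 common regions left by the exclusion, and from 6.43% (5.51 to 7.46%) on chromosome 9_10S to 8.19% (7.25 to 9.21%) on 8L. Xenopus laevis arose by hybridisation of different frog species, and each of its chromosomes exists in a longer version, L, and a shorter one, S. Several-peak regions were 2194 of 29687 regions on L chromosomes (7.39%) and 1668 of 22916 on S chromosomes (7.28%). The L minus S difference averaged 0.09 percentage points over the 9 pairs (SD 0.70, −0.68 to 1.17), with L higher in 4 of 9, and did not pass the test (exact two-sided sign-flip permutation p = 0.699, adjusted p = 0.871 over 3 tests, where 0.00391 is the smallest p possible). The share was higher on L for pairs 8 (8.19 and 7.13%) and 9_10 (7.60 and 6.43%), and lower on L for pair 6 (6.79 and 7.47%) and pair 5 (7.03 and 7.64%).

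At similar width, several-peak and single-peak regions had ETS2 neighbours about equally often. Another common region lay within 5 kb of 45.3% of several-peak regions and 40.6% of single-peak regions, against 41.8% of all common regions on chromosomes. At similar width the shares were 44.8% and 45.1%. The difference averaged −0.08 points over the 9 chromosome pairs (SD 1.51, −2.60 to 1.70), positive in 5 of 9 (exact sign-flip permutation p = 0.871, adjusted p = 0.871). A library 2 peak outside the common regions lay within 1 kb of 22.2% of several-peak and 17.4% of single-peak regions, against 18.3% of all. At similar width these shares were 21.8% and 21.3%, with a mean difference of 0.47 points (SD 3.67, −5.07 to 6.70), with 4 of 9 positive (two-sided p = 0.703 in the exact permutation test, adjusted p = 0.871). Differences of a few points either way lay within the spread between chromosome pairs. These tests compare chromosome pairs, not embryos.

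Several-peak regions were about as frequent beside each other as beside single-peak regions. They were 8.03% (6.93 to 9.25%) of the neighbours of several-peak regions at less than 5 kb, and 7.68% (7.34 to 8.02%) of those of single-peak regions. Each neighbouring pair was counted from both of its regions, and the intervals take no account of this. Widths were not matched here. Of 14183 such neighbouring pairs, 88 were 2 several-peak regions, and these formed 79 runs of 2, 3 runs of 3 and 1 run of 4. The run of 4, singled out after its values were seen, was on chromosome 2L at 75982384 to 75991348 and spanned 8965 bp. It contained the region with 5 inner peaks and the region with inner values of 50.4 and 1.92 described above, then regions at 75987273 to 75988991 and 75989978 to 75991348 with 2 inner peaks each and highest values of 16.1 and 16.3. After 1 single-peak region, another several-peak region lay at 75993469 to 75994786, so that 5 of the 9 common regions of this 100-kb window held several inner peaks.

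Another 4 windows of 100 kb also held 5 several-peak regions, on 5L at 23100001 to 23200000, 6L at 39600001 to 39700000, 8L at 118900001 to 119000000 and 9_10S at 3100001 to 3200000. They differed in how many common regions they held, with 17, 26, 26 and 23. The window on 5L contained regions with 6, 4, 3, 2 and 2 inner peaks. The windows were chosen after their counts were seen, and no test was made of them. In all, 455 of the 3322 windows with a several-peak region held 2 or more. No count for single-peak regions was set beside this number, so it is not read as clustering.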

How the data were processed

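Peak lists of 2 ETS2 ChIP libraries and 1 list of common regions were analysed; no file of the 2 input libraries was used here on its own. The submitters' processing notes list Bowtie2 2.2.3 and MACS2 with no role or settings; a genome build was not given in the sources used. The deposited lists hold 1 value per peak, treated here as a −log10 significance (p or q), because the smallest values lie just above 1.30, the −log10 of 0.05. Common regions carry no value. Sequencing depth is unknown.

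Peaks were assigned to common regions by an overlap of at least 1 bp. Percentiles are ranks within each whole list. Region widths were compared in bins of 100 bp. Named regions were chosen by a stated rule. They had the most inner peaks or the highest mean percentile. Others had the most equal or most unequal inner values, with the highest inner peak at or above the list median. The rest had the largest spacing, 2 library 2 peaks, or library 1 values next to the limit of the rule. Exact two-sided sign-flip permutation tests over 9 chromosome pairs were adjusted by Benjamini-Hochberg over 3 tests. The procedures were tested on simulated data. The regions and lists were chosen with earlier results of these data known. Start positions count from 1. Python 3.11.15, numpy 2.4.6, scipy 1.17.1, pandas 2.3.3 and matplotlib 3.10.9 were used.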

Additional observations from a re-analysis of the deposited data

How the results depend on the processing

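No paired analysis was possible because each ChIP library is present as 1 peak list, with no value per input library. Without the exclusion of strong regions, several-peak regions were 7.68% of regions, the median spacing was 403 bp, the lowest inner value 40.5% of the highest and the library 2 difference at similar width −6.93 points; with exclusion from the 90th percentile these were 7.06%, 380 bp, 47.0% and −5.16 points. Counting only inner peaks with a value of at least 5 left 3.77% of regions (1983), with a spacing of 448 bp and 55.8%, by construction without the weakest peaks. The gap in place of the midpoint distance gave 118 bp, and regions with exactly 2 inner peaks gave 46.7%. Chains made from 1 library alone, with the other left out, gave spacings of 391 to 523 bp, percentages of 28.9 to 39.9% and an L minus S difference of 0.17 to 0.28 points. The library 2 difference was negative in every setting tried, −5.58 to −5.95 points with other width bins or only well-filled bins. All these settings reuse the same 2 lists, so this is a description. None of the 3 tests passed in any alternative (exact p from 0.0938 to 0.980), and their signs are not stable. The L minus S difference was −0.0735 with values of at least 5, and −0.0445 to 0.187 with each chromosome pair left out. For neighbours, the difference was −1.03 without exclusion, −0.0868 with values of at least 5 and −0.47 in 200 bp bins. It was 0.0200 with the 90th percentile, 0.0638 in 50 bp bins, 1.28 within 2 kb and 0.47 within 20 kb. With classes of width and library 2 percentile it was 0.27 (added after the data were seen, as were well-filled bins). With each pair left out it was −0.30 to 0.23. For library 2 peaks nearby it was −0.89 without exclusion, −1.99 with values of at least 5, −1.93 within 5 kb, and −0.31 to 1.17 with each pair left out. The causes of these shifts were not tested. Unknown depth limits the reading of inner peaks near the threshold.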
